A study of Homo sapiens with 4 samples.

Results

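The membrane palmitoylated protein (MPP) scaffold family was examined in GIST-T1, an established human line of gastrointestinal stromal tumor (GIST) cells, which had been transfected with a mimic of miR-34a or with a negative control. The family was taken as MPP1, MPP2, MPP3, MPP5, MPP6 and MPP7 with the related scaffolds CASK and DLG1. Every probe of the array whose gene name was exactly one of these was used, which gave 13 probes of 8 genes among 50599 probes with 36337 gene names. MPP2 was chosen by measured values: it is one of the genes that the study lists as lower with the miR-34a mimic, and both its probes were lower in the comparison described here. Its difference is therefore given as a description, with no test, and the other 7 genes were taken along as its relatives.

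Both conditions were the same cell line, with 3000000 cells and 100 pmol of RNA per transfection, harvested at 48 h. The mimic is a synthetic double-stranded RNA that stands in for mature miR-34a, and the control was the negative control of the same line of mimics. Each condition had 2 one-color Agilent arrays, each hybridized with cRNA made from 100 ng of total RNA. The scan date in the array headers took 1 value over all 4 arrays. The sources used here do not say whether the arrays of a condition came from separate cultures, so the p-values measure the spread between these samples, which may be technical.

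MPP proteins belong to the membrane-associated guanylate kinases (MAGUKs), which combine PDZ, SH3 and inactive guanylate kinase-like domains and hold membrane proteins, the cortical cytoskeleton and signaling proteins together at cell junctions. Many of them also carry L27 domains, through which they pair with the small LIN7 proteins and with other scaffolds. A miRNA guides Argonaute proteins to messenger RNAs, chiefly by base pairing of its seed near the 5' end, and the RNAs bound in this way are repressed or degraded.

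The mature sequence of the transfected miRNA is shown with its seed, bases 2 to 8, in capitals, because target prediction for it rests chiefly on pairing with the seed. It is encoded at chr1:9151735-9151756 on the minus strand (RefSeq, GRCh38.p14), and 2 other mature miRNAs with the same seed, both from chromosome 5 in that source, are shown beside it. They are examples and not a full list of the miRNAs that share this seed.
hsa-miR-34a-5p: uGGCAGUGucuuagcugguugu
hsa-miR-449a: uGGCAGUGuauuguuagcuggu
hsa-miR-449b-5p: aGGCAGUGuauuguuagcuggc
The stretches that pair with the seed read CACTGCC (bases 2 to 8) and ACTGCCA (bases 2 to 7 followed by A) in DNA letters, and the 2 overlap where both occur together. On the sense strand, which the probes represent, CACTGCC was present in 220 (0.435%), ACTGCCA in 199 (0.393%) and either in 354 (0.7%) of the 50599 probes of 60 bases. Neither was present in any of the 13 family probes. This describes the 60 bases of each probe alone, and the rest of the transcripts was not analysed here.

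Signals are given as the processed signal of the scanner output, in arbitrary linear units, and as log2 signal relative to the 75th percentile of the array, so that 0 is the signal at that percentile. Differences are miR-34a mimic minus negative control on this log2 scale. A probe counted as detected on an array when the scanner software flagged it as well above background there, and it was tested when detected on both arrays of 1 condition or of both, which held for 21474 probes of the array and for 11 of the 13 family probes, covering 7 of the 8 genes. Of the family probes, 10 were detected on all 4 arrays, 1 MPP2 probe on 3 arrays, and 2 probes (the MPP7 probe and 1 of 3 CASK probes) on none. Levels of different probes were not set against each other, since probes differ in how strongly they bind.

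On each array 41.8% to 45.2% of the probes were detected. The log2 difference between replicate arrays had an SD of 0.337 for the mimic and 0.29 for the control over the tested probes. Markers of GIST (KIT, ANO1, ETV1, PRKCQ and CD34) were detected on all 4 arrays with 12 of 12 probes. Markers of epithelial, endothelial, erythroid, leukocyte and smooth muscle cells were detected on all 4 arrays with 6 of 25 probes of 14 genes, and on none with 14, including every probe of PECAM1, KRT20 and MYH11. The summed signal of these 25 probes was 1077 and 1106 on the mimic arrays and 1431 and 1364 on the control arrays. It was thus lower with the mimic. The summed signal of the 12 GIST marker probes was lower too, at 28622 and 29386 on the mimic arrays and 40277 and 38925 on the control arrays. This sum weighs bright probes most, and the brightest was a KIT probe. The GIST markers did not move together: 8 probes had a difference below 0 and 4 above 0. KIT was lower on its 3 probes (-0.70, -0.74 and -0.70), while CD34 was higher on both (0.37 and 0.39). The part of other cells or of marker transcripts in the differences below was not tested. In RNA from a whole culture, fewer expressing cells and less RNA per cell cannot be told apart.

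MPP2, a scaffold known from synapses and as a binding partner of the kinase SRC, was lower on both its probes with the miR-34a mimic, by 1.78-fold and 2.22-fold. The signal of probe A_33_P3360611 (hg19 chr17:41952727-41952786, minus strand) was 55.4 and 51.4 on the mimic arrays and 94 and 94.9 on the control arrays. The log2 signal was -1.45 ± 0.08 (SD, n = 2) with the mimic and -0.61 ± 0.04 (SD, n = 2) with the control, a difference of -0.83. The 2 conditions did not overlap, beside 30.1% of all tested probes with both mimic arrays below both control arrays. The nearest mimic and control arrays lay 0.75 apart on the log2 scale, the mimic replicates 0.11 and the control replicates 0.06. These values took part in choosing MPP2, so they describe it and test nothing.

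The other MPP2 probe, A_23_P394259 (hg19 chr17:41953209-41953268, minus strand), lies close by, so that both probes together span 0.542 kb. Its signal was 19.7 and 14.9 on the mimic arrays and 29.3 and 48.9 on the control arrays, and it was not detected on mimic array 2. The probe entered the tested set only through its detection on both control arrays, a filter that favors a decrease. The log2 signal was -3.09 ± 0.29 (SD, n = 2) with the mimic and -1.94 ± 0.56 (SD, n = 2) with the control, a difference of -1.15. Here too the conditions did not overlap, but the control replicates lay 0.79 apart and the mimic replicates 0.41, against a smallest distance between conditions of 0.55.

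Among all tested probes, these differences lay at the 2.32 percentile (A_33_P3360611) and the 1.1 percentile (A_23_P394259) from the lowest. The rank of A_23_P394259 carries the limit of its filter, which favors a decrease. The size depended on the background correction: with normexp (offset 50) in place of the scanner's processed signal, the differences were -0.42 and -0.40, or 1.34-fold and 1.32-fold, and neither passed 1.5-fold. Without negative control replicate 2, the difference of A_23_P394259 was -0.76. Over all settings tried, A_33_P3360611 ranged from -0.89 to -0.42 and A_23_P394259 from -1.54 to -0.40, and both remained negative.

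**Figure D1:**
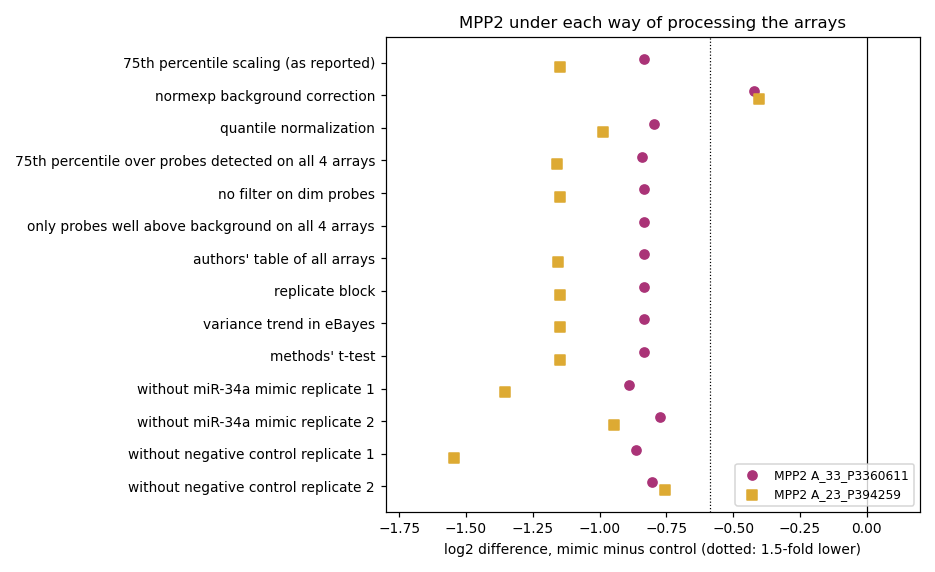
Log2 difference (miR-34a mimic minus negative control, x axis) of the MPP2 probes under each way of processing the arrays (y axis), with the dotted line at 1.5-fold lower. All points lie left of 0, and only those with normexp background correction, -0.42 and -0.40, lie right of the dotted line.

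None of the other detected MPP genes differed by 1.5-fold. MPP1, the erythrocyte protein p55 that links protein 4.1 and glycophorin C in the red cell membrane, had a small difference above 0 on probe A_23_P171296 (hg19 chrX:154006984-154007043, minus strand). The signal was 1215 and 1285 on the mimic arrays and 1037 and 1052 on the control arrays, without overlap. The difference was 0.25 ± 0.06 (SE) on the log2 scale, or 1.19-fold, with a 95% interval of 0.07 to 0.44 and an adjusted p of 0.149 by limma with Benjamini-Hochberg adjustment over the 21474 probes. The difference did not pass the test at 0.05 here or under any setting tried, where the adjusted p ranged from 0.0517 to 0.418.

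The other MPP1 probe, A_33_P3247858, lies 12.3 kb away (hg19 chrX:154019259-154019318, minus strand). It gave 67.5 and 51 on the mimic arrays and 54.5 and 48.9 on the control arrays, so the conditions overlapped. The difference was 0.18 ± 0.17 (SE) on the log2 scale (limma, adjusted p = 0.542). Both MPP1 probes thus gave differences above 0 that did not pass the test.

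MPP3 was detected on all 4 arrays, close to the lowest detected signals. Its probe A_23_P141345 (hg19 chr17:41878876-41878935, minus strand) gave 18.5 and 23.6 with the mimic and 25.4 and 20.8 with the control, and the conditions overlapped. The difference of -0.15 ± 0.17 (SE) on the log2 scale did not pass the test (limma, adjusted p = 0.609), and its sign turned with quantile normalization, to 0.08.

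MPP5, now named PALS1, is the scaffold of the Crumbs polarity complex. Its probe A_33_P3248967 (hg19 chr14:67802437-67802496, plus strand) gave 429 and 422 on the mimic arrays and 360 and 397 on the control arrays. Both mimic arrays were above both control arrays, with a difference of 0.16 ± 0.09 (SE) on the log2 scale that did not pass the test (limma, adjusted p = 0.333). It was 0.07 without control replicate 1 and 0.26 without control replicate 2.

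MPP6, now named PALS2, is another MPP scaffold that binds LIN7. Its probe A_23_P71053 (hg19 chr7:24718879-24718938, plus strand) gave 193 and 187 on the mimic arrays and 205 and 214 on the control arrays. Both mimic arrays were below both control arrays, as for MPP2, but the difference was -0.14 ± 0.07 (SE) on the log2 scale, with a 95% interval of -0.34 to 0.06 (limma, adjusted p = 0.3), and it was -0.09 without control replicate 2.

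MPP7, which joins DLG1 and LIN7 proteins at epithelial junctions, was detected on no array. Its probe A_33_P3229477 (hg19 chr10:28339931-28339990, minus strand) gave 8.53 and 6.89 with the mimic and 3.26 and 3.54 with the control, and no fold is given for values below background.

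**Figure D2:**
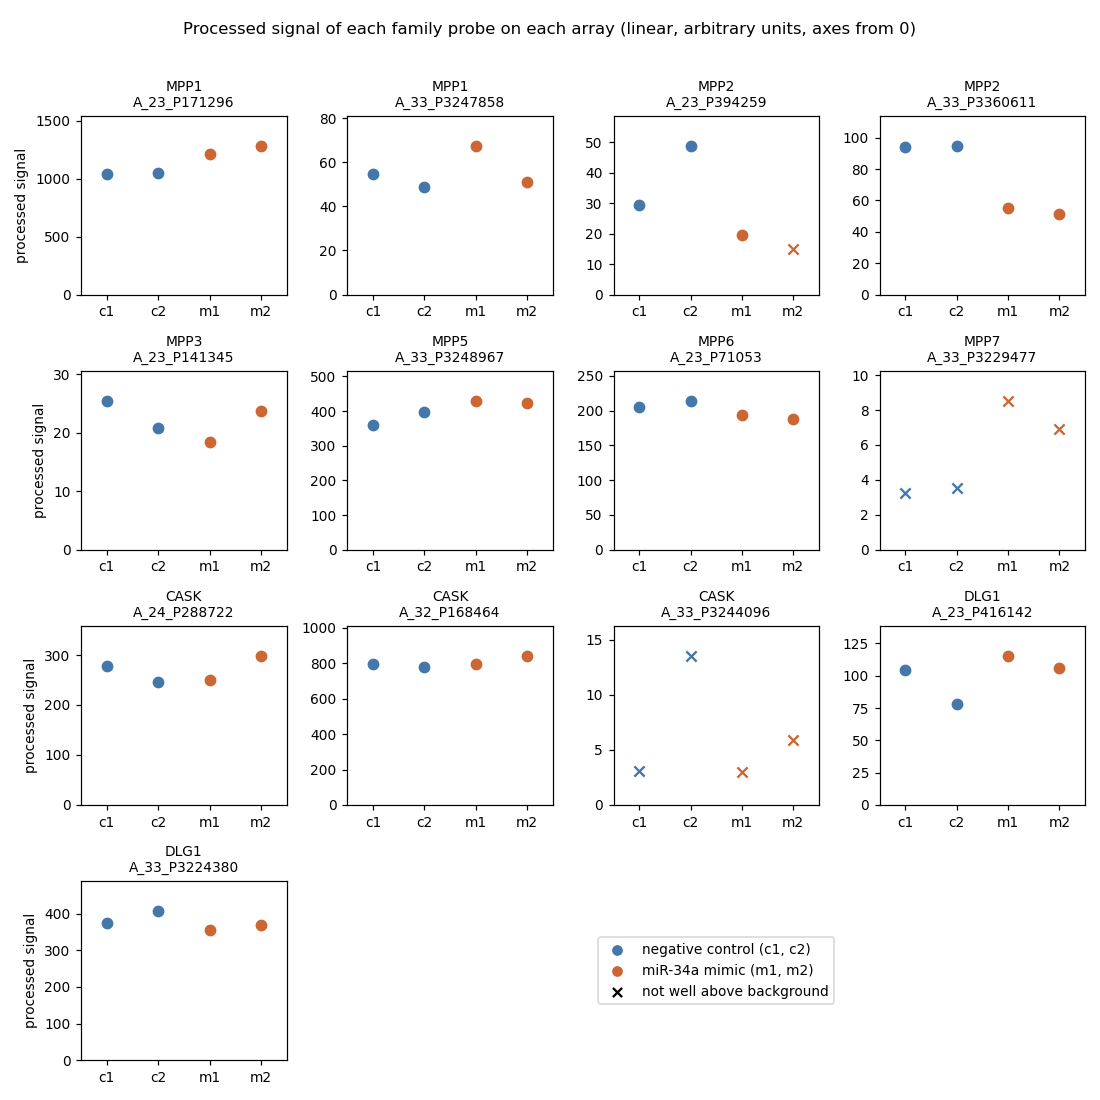
Processed signal (linear, arbitrary units, y axis from 0) of each family probe on negative control arrays (c1, c2) and miR-34a mimic arrays (m1, m2), with crosses for values not well above background. The MPP2 panels show both mimic arrays below both control arrays, while the MPP7 probe and CASK probe A_33_P3244096 have crosses only.

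CASK, which carries a calmodulin kinase-like domain and ties LIN7 and Mint proteins to neurexins and syndecans, had differences near 0. Probe A_32_P168464 (hg19 chrX:41374258-41374317, minus strand) gave 794 and 841 with the mimic and 795 and 777 with the control. The difference was 0.05 ± 0.06 (SE) on the log2 scale, with a 95% interval of -0.12 to 0.22 (limma, adjusted p = 0.622). After scaling, both mimic arrays were above both control arrays, but the nearest ones lay only 0.0055 apart.

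CASK probe A_24_P288722 (hg19 chrX:41379525-41379584, minus strand) gave 249 and 298 with the mimic and 277 and 246 with the control, and the conditions overlapped. Its difference was also 0.05, with an SE of 0.12 (limma, adjusted p = 0.792), and its sign turned when mimic replicate 2 or control replicate 2 was left out. The third CASK probe, A_33_P3244096 (hg19 chrX:41418759-41418818, minus strand), gave 2.99 and 5.91 with the mimic and 3.11 and 13.5 with the control, none of them detected.

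DLG1, or SAP97, the human counterpart of Drosophila discs large and part of the Scribble polarity module, had 2 detected probes that went opposite ways. They lie 93.7 kb apart in the gene and are shown with MPP6's probe, each 60 bases in the sense of the transcript, because they say which stretch of RNA each value measures.
DLG1 A_23_P416142: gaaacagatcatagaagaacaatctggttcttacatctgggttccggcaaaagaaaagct
DLG1 A_33_P3224380: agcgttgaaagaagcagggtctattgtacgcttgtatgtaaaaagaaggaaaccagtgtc
MPP6 A_23_P71053: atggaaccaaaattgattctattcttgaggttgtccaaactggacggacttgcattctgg
No letters are in capitals, since none of the 3 holds a seed match.

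Probe A_23_P416142 (hg19 chr3:196771498-196771557, minus strand) gave 115 and 106 on the mimic arrays and 104 and 77.9 on the control arrays. After scaling, both mimic arrays were above both control arrays, with a difference of 0.29 ± 0.16 (SE) on the log2 scale (limma, adjusted p = 0.341). It was 0.10 without control replicate 2 and 0.47 without control replicate 1. Probe A_33_P3224380 (hg19 chr3:196865134-196865193, minus strand) gave 355 and 370 on the mimic arrays and 376 and 407 on the control arrays. Both mimic arrays were below both control arrays here, with a difference of -0.12 ± 0.08 (SE) on the log2 scale (limma, adjusted p = 0.431), which was -0.04 without control replicate 2 and -0.20 without control replicate 1. Neither DLG1 difference passed the test, and the contrast between the 2 probes was not tested.

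**Figure D3:**
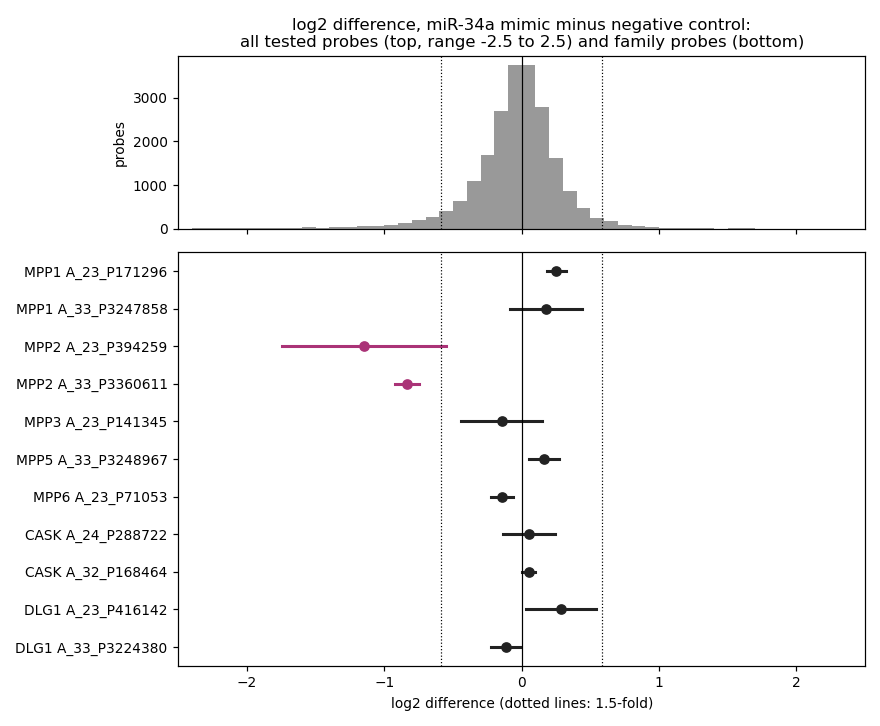
Number of tested probes of the array by log2 difference (top) and log2 difference (miR-34a mimic minus negative control, x axis) of the 11 tested family probes (bottom), with points for the mean and lines from the lowest to the highest difference between a mimic and a control array. The MPP2 probes lie at -1.15 and -0.83, and the other 9 probes lie between -0.15 and 0.29, inside the dotted lines at 1.5-fold.

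Counted over the family, 2 of the 11 tested probes were lower by more than 1.5-fold, both of MPP2, beside 4.8% of all tested probes, and 0 were higher by more than 1.5-fold, beside 2.11%. Nothing can be read from the 2, since this comparison chose MPP2. Among probes detected on all 4 arrays, 1 of 10 family probes was lower by that much, again MPP2, beside 2.55%, and 0 were higher, beside 1.42%. With quantile normalization the split over the array was 775 lower and 702 higher probes, in place of 1030 and 453, and the family count was still 2 and 0.

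Without MPP2, 9 tested probes of 6 genes remained. Of these, 0 passed 1.5-fold in either direction, 3 had a difference below 0 and 6 above 0, and their median was 0.05, beside -0.01 for all tested probes. Both mimic arrays were below both control arrays for 2 of the 9, beside 30.1% of all tested probes, and above them for 4, beside 30.4%. By limma, 0 of the 9 had an adjusted p under 0.05, beside 0% of all tested probes. The probe A_23_P171296 of MPP1 was the 1 of 9 with an unadjusted p under 0.05, beside 24.3%. With a variance trend in limma's eBayes, 0 of the 9 were called, beside 7.41% of all tested probes.

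How small a difference could be seen varied between these 9 probes. For 6 of them the 95% interval of limma lay within 1.5-fold in both directions, which is 0.58 on the log2 scale. For the other 3, which were MPP3, DLG1 A_23_P416142 and MPP1 A_33_P3247858, the interval reached beyond 1.5-fold, with bounds as far as -0.63 and 0.74. With 2 arrays against 2, an exact permutation test cannot give a two-sided p below 0.333.

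The pattern of 5 genes over the 4 arrays was nearest to that of MPP2 probe A_33_P3360611, by Euclidean distance between log2 signals centered on their mean, among the 20068 probes detected on all arrays. They were TBX2 (distance 0.0407), LOC100294145 (0.0483), LOC100129113 (0.0529), RRAS (0.0552) and C2orf15 (0.0582), with log2 differences of -0.81, -0.82, -0.86, -0.81 and -0.79. None is a family gene, and with 4 arrays in 2 conditions such likeness mainly describes the size of the difference.

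MPP2 and MPP3 are neighbors on chromosome 17, with 73.8 kb between their probes. Within 500 kb of the MPP2 probes, 22 tested probes of 21 other genes had a median log2 difference of -0.07. Of these 22 probes, 1 was lower by more than 1.5-fold, beside 4.8% of all tested probes, and 0 were higher by that much, beside 2.11%. The lower one was RUNDC3A at 441 kb, with a difference of -1.01. RUNDC3A was named after its value was seen.

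**Figure D4:**
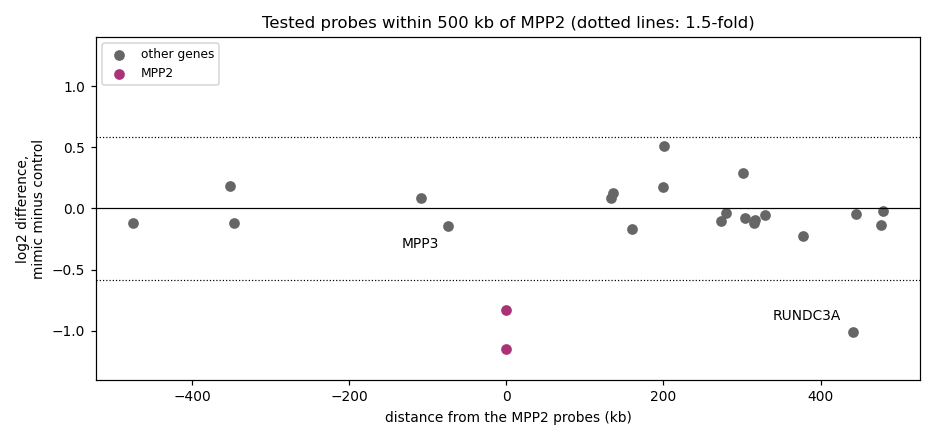
Log2 difference (miR-34a mimic minus negative control, y axis) of tested probes by distance from the MPP2 probes in kb (x axis), with dotted lines at 1.5-fold. MPP2 at -1.15 and -0.83 and RUNDC3A at -1.01 lie below the lower line, and MPP3 at -0.15 and the rest lie between the lines.

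The partners of the family were followed in 6 lists. They cover the CASK, LIN7 and Mint complex with its membrane ligands, the Crumbs complex, the PAR complex and the Scribble complex. The remaining lists are other MAGUKs, and protein 4.1 and its relatives with glycophorin C. All 6 lists together hold 92 probes of 52 genes on the array, and 47 probes of 35 genes were tested. Of the genes, 13 were detected on no array with any probe. Of the 47, 23 had a difference below 0 and 24 above 0, with a median of 0.04.

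In the partner lists 2 of the 47 probes were lower by more than 1.5-fold, beside 4.8% of all tested probes, and 0 were higher by that much, beside 2.11%. By limma, 0 had an adjusted p under 0.05, beside 0%, and 19 an unadjusted p under 0.05, beside 24.3%. Both mimic arrays were below both control arrays for 13, beside 30.1%, and above them for 18, beside 30.4%.

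Both probes past 1.5-fold belonged to the CASK, LIN7 and Mint list. NRXN2, a neurexin whose tail binds CASK, had log2 signals of -1.85 and -2.28 with the mimic and -1.06 and -1.16 with the control. All 4 were detected and did not overlap between conditions, with a difference of -0.96 ± 0.17 (SE), or 1.94-fold (limma, adjusted p = 0.111). LIN7A, one of the LIN7 scaffolds, had log2 signals of -3.27 and -3.14 with the mimic and -2.46 and -2.77 with the control, and was not detected on mimic array 1. Its difference was -0.59 ± 0.13 (SE), or 1.51-fold (limma, adjusted p = 0.133), so that neither gene passed the test. LIN7A was tested through its detection on both control arrays, a filter that favors a decrease. With detection required on all 4 arrays, 1 partner probe was lower by more than 1.5-fold.

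The 17 tested probes of that list had a median of -0.01, with 9 below and 8 above 0. Its members pointed both ways: LIN7B had a difference of 0.53 (limma, adjusted p = 0.0969), and the Mint gene APBA1 had 0.44 and 0.45 on its 2 probes. NRXN3 was not tested for lack of signal. Apart from NRXN2 and LIN7A, the partner genes named with values here and in the lists that follow were chosen after their values were seen.

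In the Crumbs complex, where MPP5 is the scaffold, CRB1, CRB2 and CRB3 were detected on no array, and the tested probes were 1 of INADL (0.10) and 1 of AMOT (-0.20). The PAR complex, which sets apical polarity with atypical protein kinase C, had 11 tested probes, 6 below and 5 above 0, with a median of -0.01. The Scribble complex, to which DLG1 belongs, had 3 tested probes with SCRIB at -0.24 and LLGL2 at 0.17 and 0.22.

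The other MAGUKs had 10 tested probes of 8 genes with a median of 0.06, and the extremes, -0.29 and 0.31, were both probes of CARD14. DLG2, MAGI2, MPP4 and TJP3 were detected on no array. The list of protein 4.1 and glycophorin C, the red cell partners of MPP1, also holds the protein 4.1 relatives EPB41L1, EPB41L2, EPB41L3 and EPB41L5. It had 4 tested probes with a median of 0.08, of which only that of GYPC (glycophorin C) was of a red cell partner. EPB41L1 was at 0.44 (limma, adjusted p = 0.0964) and GYPC at -0.10, while EPB41, which encodes protein 4.1 itself, was not detected.

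**Figure D5:**
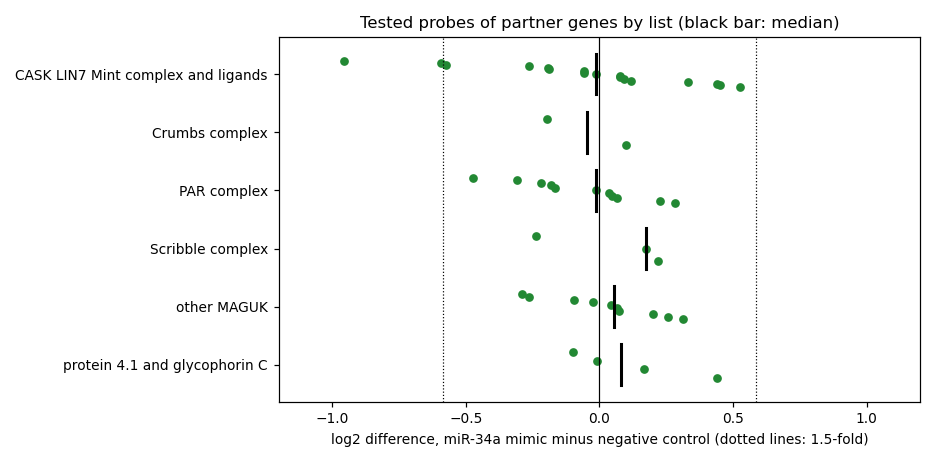
Log2 difference (miR-34a mimic minus negative control, x axis) of the 47 tested partner probes in 6 lists (y axis), with a black bar at the median of each list and dotted lines at 1.5-fold. Only NRXN2 at -0.96 and LIN7A at -0.59 lie left of the lower line, and the list medians lie between -0.05 and 0.17.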

How the data were processed

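The authors deposited the intensity of every spot of each one-color array from Agilent Feature Extraction 10.7.3.1 (10.7 in the submitters' processing notes): the processed signal, with background subtracted but not scaled between arrays, and flags for spots above background or outlying. Their table of all arrays held the same intensity values within 0.496%. Its column medians were 10.6, 8.41, 11.1 and 13.7, and 0 columns belonged to no mapped sample.

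Outlier spots (293 to 424 of 58717 per array) were left out, none was saturated, spots of one probe were averaged, and log2 signals were shifted by each array's 75th percentile. Dim signals are the least precise. Tests used limma 3.58.1 in R 4.3.3 (data.table version 1.17.8), with no covariate, and Benjamini-Hochberg adjustment over 21474 probes. Scripts were tested on simulated data. The 1.5-fold threshold follows the study's methods. The alternatives were other background corrections, scalings, filters and fits, the authors' table, and leaving out each array.

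Members, lists and tests were chosen with earlier results of these data known. The rule for named genes was every member, partner probes past 1.5-fold and the 5 genes most like MPP2, and other genes were named after their values were seen. The accessions of 12 of the 13 family probes matched RefSeq. Positions are those of the array annotation (hg19), and exon and UTR annotation was not used here. The number of arrays limits the precision.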

Additional observations from a re-analysis of the deposited data

How the results depend on the processing

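Of 142 pairs of a tested family probe and an alternative, 137 kept the reported direction. The 5 others were CASK A_24_P288722 without mimic replicate 2 (-0.07) and without control replicate 2 (-0.01), MPP1 A_33_P3247858 without mimic replicate 1 (-0.03), and MPP3 with quantile normalization (0.08) and without mimic replicate 1 (0.03).

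With normexp background correction, family probes lower by more than 1.5-fold went from 2 to 0 and partner probes from 2 to 0, and limma called 1 family probe (MPP2) and 2 partner probes (NRXN2 and EPB41L1) in place of 0. Over the array, 185 (0.862%) probes were lower and 68 (0.317%) higher by that much, and 877 were called. With a variance trend, 1 family probe (MPP2) and 3 partner probes (SCRIB, CARD10 and EPB41L1) were called, of 1591 in all. Since its contrast chose MPP2, these calls are no support for it. Quantile normalization left 1 lower partner probe of 47, beside 3.61% of all tested probes. Without the filter on dim probes, 13 family and 92 partner probes were counted among 50599. Of these, 1 family probe (MPP7) and 2 partner probes were higher by more than 1.5-fold, beside 2070 (4.09%) over the array. Lower by that much were 3 family probes (MPP2 and CASK A_33_P3244096) and 16 partner probes, beside 6823 (13.5%). The MPP7 and CASK A_33_P3244096 values lie below background, so these 2 counts are not read as differences. With probes above background on all 4 arrays only, 1 of 10 family probes and 1 of 46 partner probes were lower, beside 2.55% of 20068 probes. Leaving out each array in turn gave 2 lower family probes throughout. It gave 2 to 3 lower and 0 to 1 higher partner probes (1 without control replicate 2). Over the array, 4.61% to 6.62% of probes were then lower and 2.45% to 2.64% higher. The cause of these changes was not tested.

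The replicate number as a block changed no call: with the replicate block, 2 family probes were lower, 0 were called, and MPP2 A_33_P3360611 stayed at -0.83. Same-numbered arrays did not deviate together (correlation of deviations -0.0276), so the numbers were not taken to pair the arrays. The study's methods name the t-test for continuous variables and no test for the arrays in particular. Applied here, a t-test called 0 family probes, with 1 adjusted and 4202 unadjusted calls over the array. Low signal over background kept the MPP7 probe and CASK A_33_P3244096 out of the tests, and MPP2 A_23_P394259 was not detected on mimic array 2.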
